A study of Mus musculus with 8 samples.

Results

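The miRNAs described here are the 2 arms of miR-126a, miR-221 and miR-222, which are 6 of the 1881 mouse miRNAs on an Agilent microarray (mmu-miR-126a-3p, mmu-miR-126a-5p, mmu-miR-221-3p, mmu-miR-221-5p, mmu-miR-222-3p and mmu-miR-222-5p, written below without the species prefix). They were chosen by name, as the rows of the 8 array files that were not control spots and carried 1 of these 6 names, and all 6 were found. The study compared kidneys of mice with acute kidney injury brought on by lipopolysaccharide (LPS, from the outer membrane of Gram-negative bacteria) with kidneys of sham mice. Each of the 4 LPS samples (replicates 6, 10, 11 and 12) came from a mouse injected intraperitoneally with 10 µg LPS per g body weight. Each of the 4 sham samples (replicates 5, 6, 7 and 8) came from a mouse that received saline. All kidneys were collected at 24 h, and 100 ng of total RNA from 30 mg of tissue was labelled with the dye Cy3. The mice's strain, genotype, sex and age are not given in the sources used here. Labels do not say whether separate samples stand for separate mice, and each p-value refers only to the spread among the samples, which may be technical.

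A miRNA is cut from a hairpin precursor whose 5′ and 3′ arms can each give a mature strand (5p and 3p). The mature strand guides Argonaute to messenger RNAs, mainly through its bases 2 to 8, the seed. MiR-126 lies in the gene of the endothelial factor Egfl7 and is known as an abundant miRNA of vascular endothelium, where its 3p strand supports VEGF signalling by repressing the inhibitors Spred1 and Pik3r2 and also targets the leukocyte adhesion molecule Vcam1. MiR-221 and miR-222 are made from neighbouring hairpins, share a seed and are known to repress the receptor Kit and the cell cycle inhibitor Cdkn1b in endothelium and smooth muscle.

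The mature strands below are those of RefSeq for mouse build GRCm38.p6, whose table held 4 of the 6 members. They are shown because 2 of them share a seed and the results turn on how that pair compares. Capitals mark the seed.
miR-221-3p: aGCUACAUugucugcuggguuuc
miR-222-3p: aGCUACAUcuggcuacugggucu
miR-126a-3p: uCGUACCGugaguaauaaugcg
miR-221-5p: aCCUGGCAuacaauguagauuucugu
MiR-221-3p and miR-222-3p were identical over their first 8 bases and at 11 of 23 positions in all. In the RefSeq table their seed also occurred in miR-1928, which was above background on 0 of the 8 arrays, and the seed of miR-126a-3p occurred in no other entry.

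The hairpins show how the strands sit in the genome, with the listed mature strands in capitals.
Mir221: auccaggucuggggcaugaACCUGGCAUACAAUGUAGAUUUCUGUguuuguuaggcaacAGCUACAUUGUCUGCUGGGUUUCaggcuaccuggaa
Mir222: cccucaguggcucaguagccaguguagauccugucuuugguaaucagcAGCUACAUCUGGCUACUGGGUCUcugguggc
Mir126a: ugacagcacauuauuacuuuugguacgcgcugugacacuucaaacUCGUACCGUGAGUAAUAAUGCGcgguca
Mir221 lies on the minus strand at chrX:19146294-19146388 and Mir222 on the same strand at chrX:19146893-19146971, with 504 bases between them, and no other RefSeq gene overlaps either hairpin. Mir126a lies on the plus strand at chr2:26591357-26591429, inside the extent of the protein-coding gene Egfl7 (chr2:26581083-26592682), and overlaps Mir126b (chr2:26591363-26591420). Exon and intron positions were not used here.

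The array reads each strand with 2 or 3 probes that are complementary to its 3′ part. For the 2 strands with a shared seed, the probes pair mainly with bases beyond it. The probes to miR-221-3p and miR-222-3p are shown as DNA, 5′ to 3′, each in its longer form with the base that the shorter form lacks in capitals.
miR-221-3p probe: gaaacccagcagacaatgtA
miR-222-3p probe: acccagtagccagA
The longer probe to miR-221-3p pairs with its bases 4 to 23 and the longer probe to miR-222-3p with its bases 8 to 21. The longest exact run of a miR-222-3p probe in miR-221-3p was 6 bases, and the longest run of a miR-221-3p probe in miR-222-3p was also 6 bases. Pairing with mismatches or at a shifted position was not examined, so binding of a probe to the other strand was not tested.

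The 8 arrays lay on 1 slide, with sham arrays in row 1 and LPS arrays in row 2, which means that the effects of row and of group cannot be told apart. Between 15.8% and 17.5% of the spots of an array were well above background, and none was saturated. The number of miRNAs detected was 351 ± 17.8 (SD, n = 4) on sham arrays and 353 ± 7.80 (SD, n = 4) on LPS arrays (2-sided exact permutation p = 0.829). Levels are given as log2 of a miRNA's summed probe signal relative to the 75th percentile of its array, and the 338 miRNAs detected on every array of a group were tested. A miRNA was called when its p from limma, adjusted by the Benjamini-Hochberg method over the 338, was under 0.05. Across the 338, 136 were called (40.2%), 86 lower in LPS (25.4%) and 50 higher (14.8%), and the median difference was -0.08.

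Of the 6 members, 4 were detected on all 8 arrays and tested, and 1 of these, miR-221-3p, was called. MiR-221-3p fell in LPS kidneys to 79.9% of its sham level, while both arms of miR-126a and miR-222-3p did not pass the test. The 5p arms of miR-221 and miR-222 were not above background on any array. The array measures RNA from whole tissue, in which fewer cells of a type and less RNA per cell cannot be told apart.

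MiR-221-3p had log2 levels of 1.02, 0.98, 0.96 and 0.93 in sham replicates 5, 6, 7 and 8. In LPS replicates 6, 10, 11 and 12 its levels were 0.71, 0.72, 0.56 and 0.60. All 4 LPS arrays lay below all 4 sham arrays, as the plot of levels by array shows. Groups did not overlap for 125 of the 338 tested miRNAs (37.0%). The mean was 0.97 ± 0.04 (SD, n = 4) in sham and 0.65 ± 0.08 (SD, n = 4) in LPS. The log2 difference was -0.32 ± 0.06 (SE), with a 95% interval of -0.45 to -0.20, or 73.1% to 87.3% of the sham level, and an adjusted p of 0.00278 by limma. Ordered by p, miR-221-3p stood at 44 among the 338, and its difference was larger in size than those of 66.3% of them.

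MiR-222-3p had log2 levels of -0.77, -0.91, -0.95 and -0.96 in sham replicates 5, 6, 7 and 8. Its levels in LPS replicates 6, 10, 11 and 12 were -0.82, -0.76, -0.86 and -0.81. Sham replicate 5 lay among the LPS arrays, and the other 3 sham arrays lay below all of them. The difference was 0.08 ± 0.06 (SE), with a 95% interval of -0.05 to 0.22 and an adjusted p of 0.276 by limma. The interval spans 96.6% to 116% of the sham level and lies wholly above that of miR-221-3p. Without sham replicate 5 the difference was 0.14, with an adjusted p of 0.0687 by limma, and under quantile normalization and spike-in scaling it was below 0 (-0.11 and -0.059).

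MiR-126a-3p, the strand that represses Spred1, had log2 levels of 4.19, 4.18, 4.10 and 4.08 in sham replicates 5, 6, 7 and 8. Its levels in LPS replicates 6, 10, 11 and 12 were 4.09, 4.22, 4.06 and 4.11. The groups overlapped, with both the highest and the lowest level on LPS arrays. The means were 4.14 ± 0.06 (SD, n = 4) in sham and 4.12 ± 0.07 (SD, n = 4) in LPS, a difference of -0.02 ± 0.06 (SE) with an adjusted p of 0.840 by limma. The 95% interval of -0.15 to 0.11 corresponds to 90.4% to 108% of the sham level, which does not reach down to the 79.9% measured for miR-221-3p.

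MiR-126a-5p, the strand from the other arm of the same hairpin, had log2 levels of -0.76, -0.82, -0.88 and -0.92 in sham replicates 5, 6, 7 and 8. Its levels in LPS replicates 6, 10, 11 and 12 were -0.88, -0.74, -1.01 and -0.82. Here too LPS arrays held both the highest and the lowest level. The difference was -0.02 ± 0.07 (SE), with a 95% interval of -0.18 to 0.14 (88.2% to 110% of the sham level) and an adjusted p of 0.829 by limma. Differences of both arms of miR-126a this close to 0 have no settled direction, since the sign turned under other scalings and with single arrays left out. Under quantile normalization miR-126a-5p was called lower, at -0.22 with an adjusted p of 0.0214 by limma. With spike-in scaling the differences were further from 0, at -0.159 for miR-126a-3p and -0.165 for miR-126a-5p. Neither was called (limma adjusted p = 0.0787 and 0.0896), and that of miR-126a-3p lay below its 95% interval under the main processing.

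**Figure D1:**
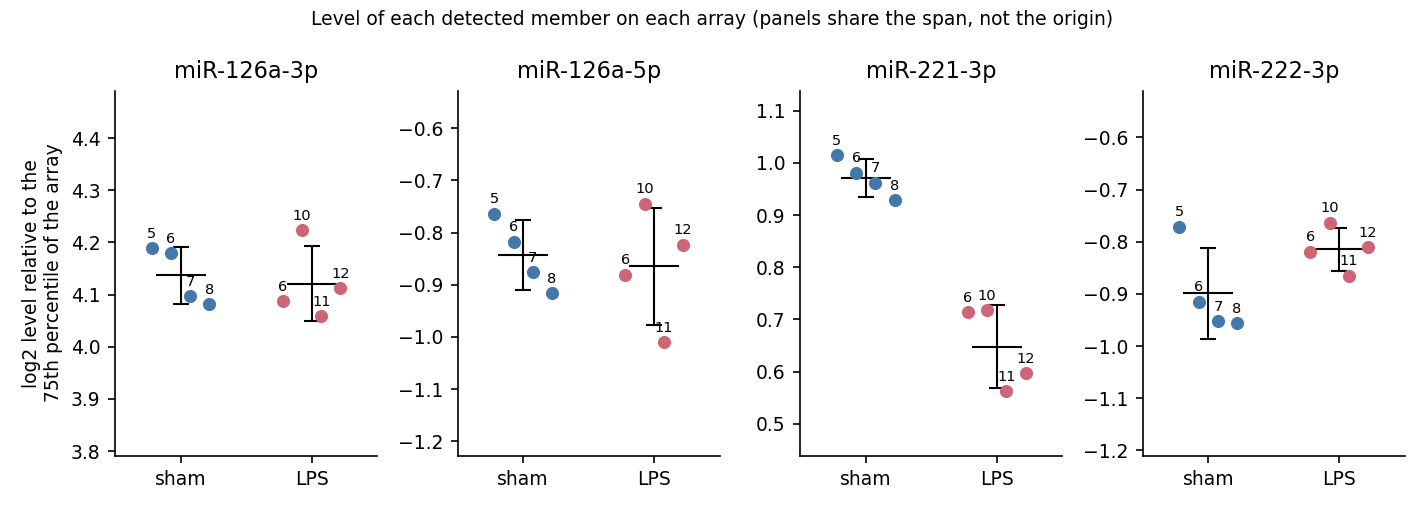
Log2 level over the array's 75th percentile (y axis) for the 4 detected members in sham and LPS kidneys. Each point is 1 array, labelled with its replicate number, bars give mean ± SD (n = 4), and all panels span the same range around different origins; miR-221-3p is the panel whose groups are apart, with sham at 0.93 to 1.02 and LPS at 0.56 to 0.72.

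Both probes to miR-221-3p gave the decrease. The shorter probe had mean signals of 416, 392, 425 and 403 scanner units on sham replicates 5, 6, 7 and 8, and of 348, 363, 323 and 308 on LPS replicates 6, 10, 11 and 12. All 4 LPS signals were below all 4 sham signals even before arrays were scaled. The log2 difference after scaling was -0.36 ± 0.06 (SE, limma adjusted p = 0.00176) for this probe and -0.30 ± 0.06 (SE, limma adjusted p = 0.00474) for the longer one. Over all 633 probes tested in the same way, 246 were called (38.9%).

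The longer probe to miR-222-3p had mean signals of 163, 152, 159 and 154 on sham replicates 5, 6, 7 and 8. Its signals on LPS replicates 6, 10, 11 and 12 were 174, 193, 176 and 172, above all sham signals before scaling. After scaling its difference was 0.11 ± 0.05 (SE, limma adjusted p = 0.139), and that of the shorter probe was 0.05 with an adjusted p of 0.641 by limma. Neither was called. The differences of the miR-126a-3p probes were -0.01 and -0.02, and those of the miR-126a-5p probes -0.01 for the longer and -0.05 for the shorter, with limma adjusted p-values of 0.645 to 0.879.

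Whether 2 members responded unequally was tested within arrays, on the log2 level of the one minus that of the other, in which a factor common to an array cancels. The value for miR-222-3p minus miR-221-3p was -1.79, -1.90, -1.91 and -1.88 in sham replicates 5, 6, 7 and 8. In LPS replicates 6, 10, 11 and 12 it was -1.53, -1.48, -1.43 and -1.41. Only its change between groups can be read, since the probes of different miRNAs differ in brightness. Every LPS array lay above every sham array. The mean rose from -1.87 ± 0.06 to -1.46 ± 0.06 (SD, n = 4 each), a change of 0.41 ± 0.04 (SE), or a 1.33-fold higher ratio of miR-222-3p to miR-221-3p in LPS.

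The 2-sided exact permutation p for that change was 0.0286, the smallest that 4 against 4 arrays can give, and 0.0571 after Benjamini-Hochberg adjustment over the 6 pairs of detected members. No pair passed the threshold once adjusted. With 3 of the 6 pairs at the smallest possible p, the adjusted p could not be under 0.0571, so this outcome decides nothing about unequal change. MiR-221-3p minus miR-126a-3p changed by -0.31 ± 0.04 (SE) and miR-221-3p minus miR-126a-5p by -0.30 ± 0.05 (SE). In both pairs the groups did not overlap, and the exact permutation p was 0.0286 (0.0571 adjusted). In the first of these pairs LPS replicate 6, at -3.37, stood apart from the other LPS arrays at -3.51, -3.50 and -3.52.

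For miR-222-3p, the change was 0.10 ± 0.03 (SE) against miR-126a-3p and 0.11 ± 0.04 (SE) against miR-126a-5p, with an exact permutation p of 0.0571 (0.0686 adjusted) and overlapping groups in each. For the 2 arms of the miR-126a hairpin, miR-126a-5p minus miR-126a-3p changed by -0.01 ± 0.03 (SE, exact permutation p = 0.914, adjusted 0.914).

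**Figure D2:**
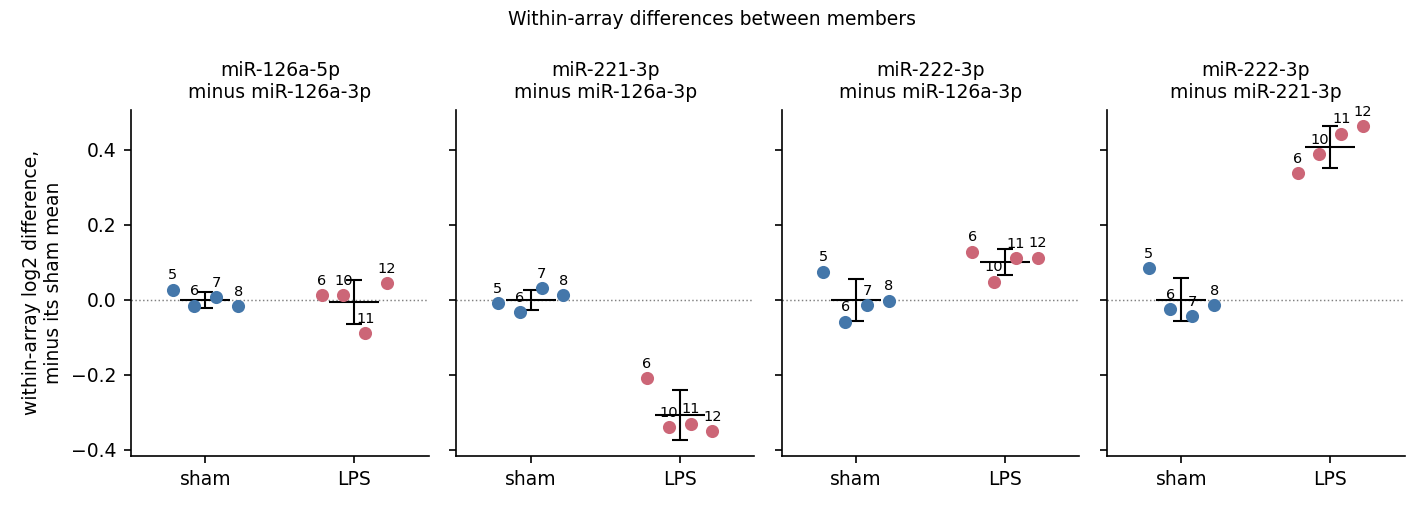
Within-array log2 difference between 2 members, minus the mean of that difference over sham arrays (y axis, 0 is the sham mean). Points are arrays labelled by replicate number and bars mean ± SD (n = 4); the 2 pairs with miR-221-3p have no overlap between groups and the pair of miR-126a arms changed by -0.01.

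Each column of the slide held 1 sham and 1 LPS array, which gives 4 differences that share no array. For miR-221-3p they were -0.30, -0.26, -0.40 and -0.33, all below 0. For miR-222-3p they were -0.05, 0.15, 0.09 and 0.15. They were -0.10, 0.04, -0.04 and 0.03 for miR-126a-3p and -0.12, 0.07, -0.13 and 0.09 for miR-126a-5p, on both sides of 0 in each case. With slide column as a block, miR-221-3p had an adjusted p of 0.0125 by limma.

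Among all 338 tested miRNAs no member lay at an end of the range of differences. The absolute difference of miR-221-3p was larger than those of 66.3% of the tested miRNAs, and the other members differed less. The absolute difference of miR-126a-3p was larger than those of 5.03% of the tested miRNAs, that of miR-126a-5p than 7.69%, and that of miR-222-3p than 21.6%. Relative to the median of all tested miRNAs, the differences were -0.24 for miR-221-3p, 0.17 for miR-222-3p, 0.07 for miR-126a-3p and 0.06 for miR-126a-5p. Scaling the arrays on the labelling spike-ins moved the median of all tested miRNAs to -0.23 and the difference of miR-221-3p to -0.47. A scaling by 1 factor per array cannot move the values relative to the median. Under quantile normalization those values were -0.33 for miR-221-3p, -0.053 for miR-222-3p, 0.037 for miR-126a-3p and -0.16 for miR-126a-5p, so the sign turned for miR-222-3p and miR-126a-5p. It turned for miR-126a-5p under cyclic loess as well (-0.020).

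**Figure D3:**
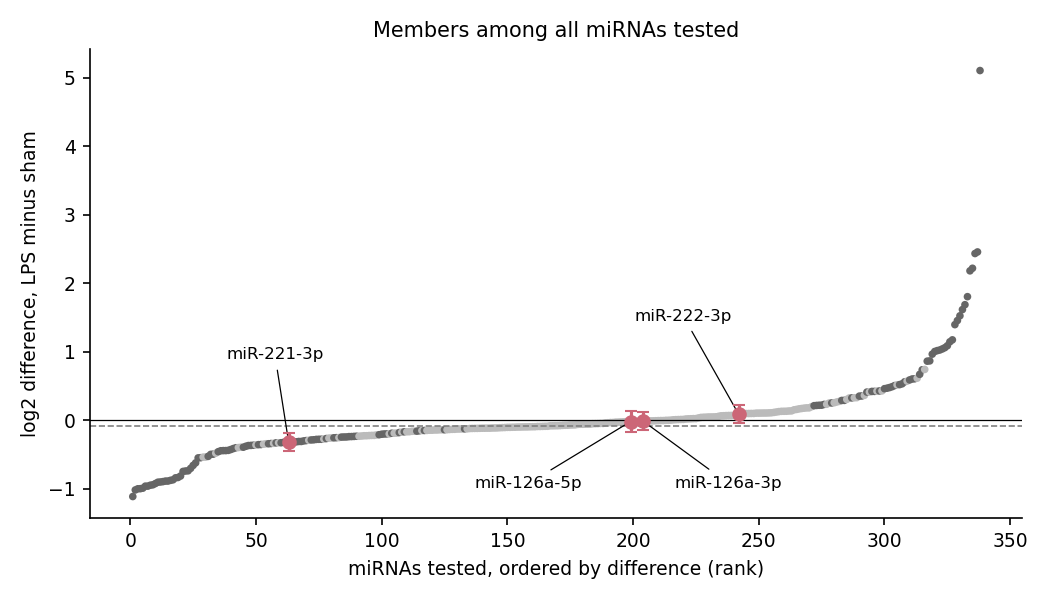
Log2 difference, LPS minus sham, of the 338 tested miRNAs (y axis) in order of that difference (x axis, rank). Dark points passed the limma threshold and light points did not, the dashed line is the median of -0.08, and the 4 detected members carry 95% intervals; that of miR-221-3p ends below 0 and the others span it.

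The 5p arms of the miR-221 and miR-222 hairpins gave no level that could be tested. The 2 probes to miR-221-5p had means of 2.62 and -0.67 scanner units on sham arrays and 3.38 and 0.38 on LPS arrays (exact permutation p = 0.114 for each), with overlapping groups. Negative control spots averaged 1.70 to 2.38 on the 8 arrays. The lowest signal of any probe above background was 16.6 to 20.4.

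The probes to miR-222-5p are shown because the longest of its 3 probes differed between the groups while it stayed dim; capitals mark the bases that the shortest lacks.
miR-222-5p shortest probe: aggatctacactggct
miR-222-5p longest probe: aggatctacactggctAC
The longest probe read 3.18, 4.54, 3.64 and 3.47 on sham replicates 5, 6, 7 and 8. On LPS replicates 6, 10, 11 and 12 it read 14.0, 12.8, 10.5 and 7.41. All LPS arrays were above all sham arrays and all 8 were below the lowest signal of a probe above background, so no fold is given. The means were 3.71 ± 0.59 and 11.2 ± 2.91 (SD, n = 4 each), with an exact permutation p of 0.0286, the smallest possible here. Of the 3782 probes that were above background in neither group, 137 (3.62%) had every LPS array above every sham array, and this probe was singled out after its values were seen. The other miR-222-5p probes had means of 0.59 and 0.02 in sham and 2.09 and 1.31 in LPS (exact permutation p = 0.0571 and 0.314), with overlapping groups.

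In the authors' deposited table of ratios, miR-222-5p stood at 24.1 and 21.9 on LPS replicates 6 and 10. In the same deposited table it stood between 0.942 and 1.02 on the other 6 arrays. The scanner software's total signal for miR-222-5p was 2.62 and 2.38 on those 2 arrays and the software's minimum of 0.1 on the rest, so the size of these ratios is set by that minimum. For miR-221-5p the total was 0.1 on all 8 arrays.

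**Figure D4:**
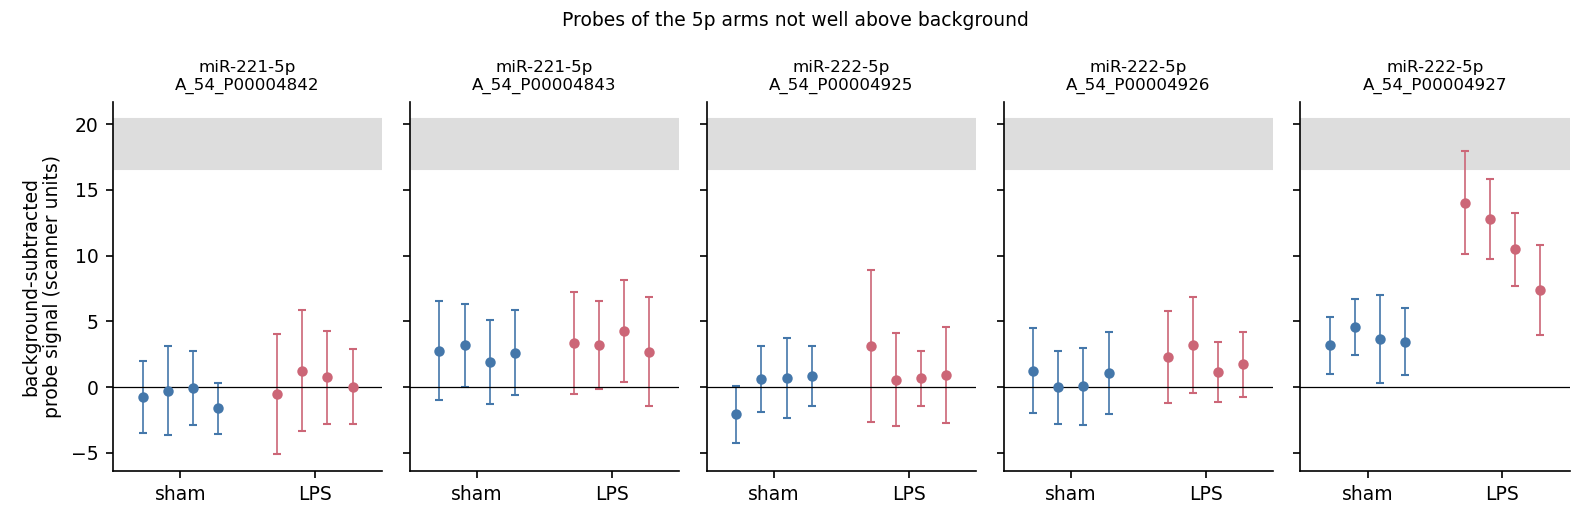
Mean background-subtracted signal in scanner units (y axis) of each probe to miR-221-5p and miR-222-5p, titled by the array's probe name, on 4 sham and 4 LPS arrays. Bars give the SD over the spots of the probe on that array and the grey band the range over arrays of the lowest signal of a probe above background (16.6 to 20.4); all points lie below the band, and the longest miR-222-5p probe is higher on LPS arrays.

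The miRNAs whose level followed each member most closely from array to array were taken by the root-mean-square difference between log2 levels centred on their mean over the 8 arrays, among the miRNAs detected on all 8. Nearest to miR-126a-3p were miR-23b-3p (0.0262), miR-24-3p (0.0312) and miR-331-3p (0.0314), against a median of 0.147 over all candidates. Nearest to miR-126a-5p were miR-340-5p (0.0438), miR-23b-3p (0.0470) and miR-24-3p (0.0471). MiR-23b-3p and miR-24-3p are among the miRNAs described in endothelium or vessel growth that are counted below, and miR-331-3p and miR-340-5p are not. None of these neighbours was called (limma adjusted p = 0.600 to 0.962). The distance includes the difference between the groups, so neighbours of a member with little change also change little by choice.

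Nearest to miR-221-3p were miR-324-5p (0.0419), miR-378a-3p (0.0480) and miR-5100 (0.0486). All 3 fell in LPS, by 0.32, 0.28 and 0.37 on the log2 scale (limma adjusted p = 0.00485, 0.00187 and 0.00429). The choice of neighbours used the difference between the groups, so this fall follows from the choice and is not a separate result. Nearest to miR-222-3p were miR-1904 (0.0410), miR-24-3p (0.0549) and miR-15b-5p (0.0608). The distance between miR-221-3p and miR-222-3p was 0.210, and that between the 2 arms of miR-126a was 0.0380.

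Of 28 further miRNAs described in endothelium or vessel growth, 23 were tested, and 8 were higher in LPS, 3 were lower and 12 did not pass the test, where 14.8% of all tested miRNAs were higher and 25.4% lower. Their median difference was 0.04, against -0.08 over all tested miRNAs. Of the 8 that were higher, 7 belong to the miR-17-92 cluster, which is transcribed as 1 precursor, so they are not separate loci; of the 16 others tested, 1 was higher and 3 were lower. MiR-18a-5p, from that cluster, rose by 1.04 ± 0.08 on the log2 scale (SE, limma adjusted p = 6.11e-05), and miR-20a-5p from the same cluster rose by 0.59 (limma adjusted p = 4.70e-04). MiR-132-3p, a CREB-induced miRNA, was higher by 1.39 and miR-503-5p lower by 0.84, each detected on 6 of the 8 arrays (limma adjusted p = 7.30e-05 and 3.03e-04). Each was tested only because every array of 1 group detected it, so these 2 calls depend on that filter. The arms of miR-126b, from the hairpin that overlaps Mir126a, were above background on 0 arrays, and the 5 members of the miR-23, miR-24 and miR-27 families on the list were not called.

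Markers of other cell types were read beside these values, where 14.8% of all tested miRNAs were higher in LPS and 25.4% lower. Of 6 leukocyte miRNAs 2 were higher in LPS, miR-155-5p by 1.69 and miR-223-3p by 0.86 (limma adjusted p = 2.25e-06 and 3.03e-04). The other 4 were not called, with differences of -0.22 to 0.26. The log2 of the summed level of all 6 was 1.18 to 1.64 in sham and 1.79 to 1.89 in LPS. Both red cell miRNAs that were tested, of 4 listed, were higher in LPS, with a log2 summed level of -0.97 to 1.64 in sham and 1.01 to 3.78 in LPS. MiR-144-3p was detected on 6 of the 8 arrays, and miR-486a-5p and miR-144-5p, on 2 and 0, were not tested. Testing required detection on every array of a group, so this count depends on that filter. Of 5 tested miRNAs of smooth muscle and stroma 2 were lower, miR-145a-5p by 0.44 and miR-199a-5p by 0.25 (limma adjusted p = 0.00278 and 0.0309). The other 3 were not called, with differences of -0.12 to 0.16. The log2 of the summed level of all 5 was 2.76 to 2.95 in sham and 2.84 to 3.002 in LPS.

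Of 6 tested kidney tubule miRNAs 4 were lower, where 25.4% of all tested miRNAs were lower. MiR-194-5p was lower by 0.33, miR-192-5p by 0.28, miR-204-5p by 0.19 and miR-196b-5p by 0.17 (limma adjusted p = 0.0107 to 0.0378). The 2 not called had differences of 0.10 and 0.11. Log2 summed levels of the 6 were 5.27 to 5.39 in sham and 5.18 to 5.36 in LPS. Of 5 epithelial miRNAs 1 was lower, miR-429-3p by 0.16 (limma adjusted p = 0.0421). The other 4 were not called, with differences of -0.08 to 0.30. The 6 tested tubule miRNAs, among them miR-192-5p, miR-194-5p and miR-204-5p, were detected on all 8 arrays. MiR-215-5p, on the same list, was above background on 0 arrays. The liver miRNA miR-122-5p and the muscle miRNAs miR-133a-3p and miR-206-3p were above background on 0 arrays, and the 2 other muscle miRNAs were not called. The log2 summed level of the 2 arms of miR-126a, the endothelial markers on the array, was 4.13 to 4.23 in sham and 4.10 to 4.27 in LPS. The part of cell composition in the lower miR-221-3p was not tested.

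**Figure D5:**
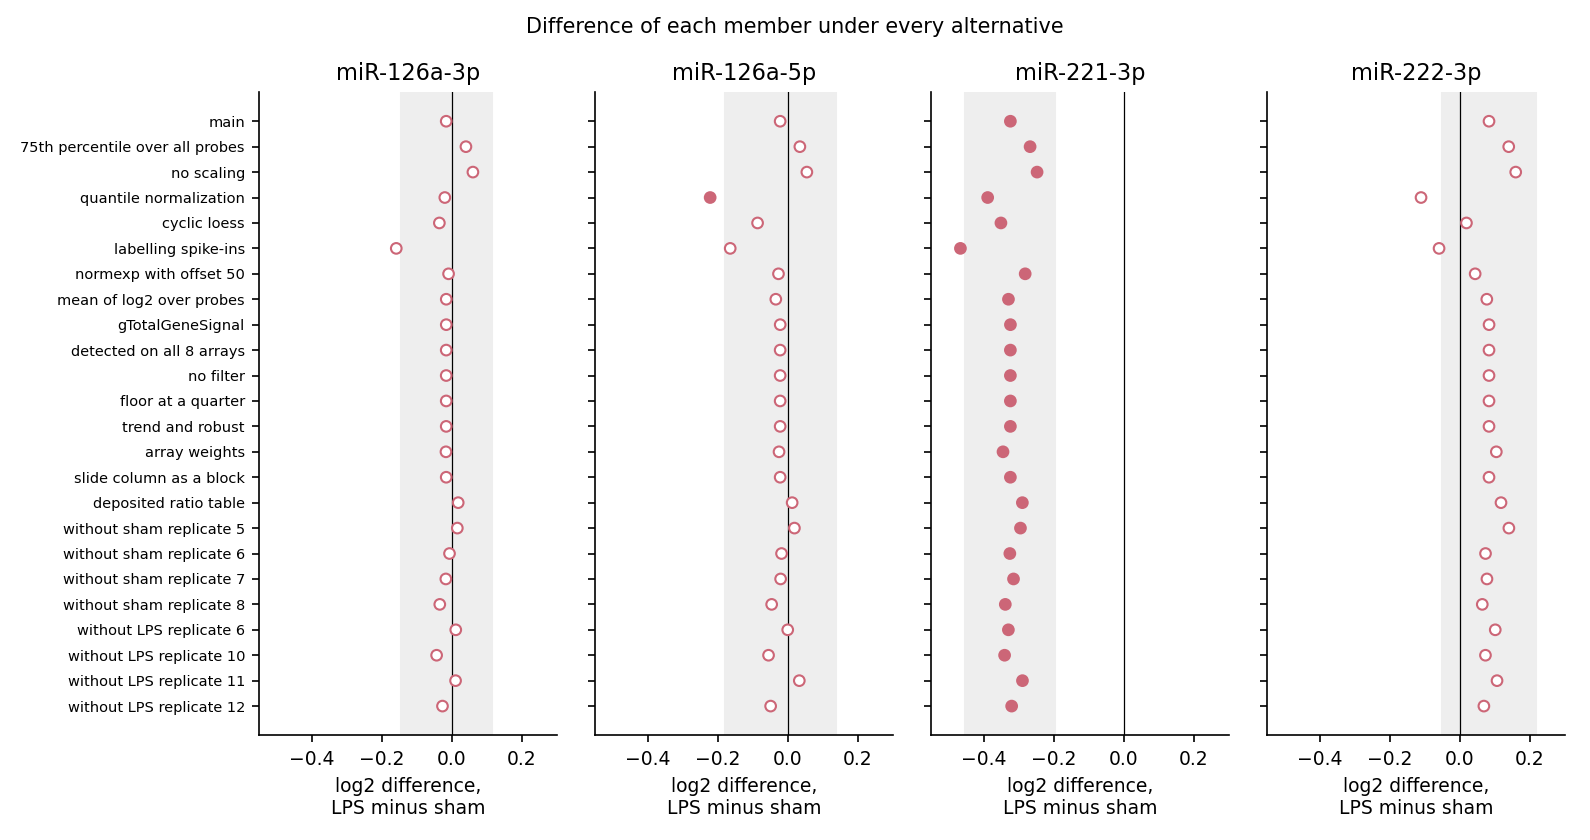
Log2 difference, LPS minus sham (x axis), of the 4 detected members under the main processing and each alternative (y axis). Filled points have a limma adjusted p under 0.05 and the grey band is the 95% interval of the main value; miR-221-3p is filled throughout, at -0.47 to -0.25, and the other members are open except miR-126a-5p under quantile normalization.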

How the data were processed

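The deposited spot intensities are the output of Agilent Feature Extraction 12.0.3.1 per the submitters' processing notes, background-subtracted and not scaled between arrays per the file headers. Outlier spots were left out, spots of a probe averaged, and each of the 8 arrays scaled by the 75th percentile of those 551 probes that were above background (over 50% of spots well above it) everywhere. Probes of a miRNA were summed, floored (log2 -4.68, which touched 0.851% of tested values) and log2-transformed. The number of arrays limits the precision. Groups were compared with limma 3.58.1 (lmFit, eBayes, 2-sided, no covariates) in R 4.3.3, over 338 miRNAs and, for single probes, 633 probes, and the steps were tested on simulated data. Single values were compared by 2-sided exact permutation tests.

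The authors' deposited table gives a ratio per miRNA and array. For 383 miRNAs, 100% of these ratios matched the scanner software's total signal to 0.01 log2 once each array and each miRNA had its own factor, so the table is linear and centred per miRNA with LPS and sham in the direction used here; the origin of the array factors is unknown. Its column medians were 0.995, 1.06, 1.05 and 0.980 (sham replicates 5 to 8) and 0.958, 0.960, 1.01 and 1.03 (LPS replicates 6, 10, 11 and 12). It served as an alternative.

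The miRNAs named are the 6 members, any tested miRNA with a member's seed, the 3 nearest in profile to each detected member, and up to 4 of each list with the smallest p. For lists with no or few calls fewer are named. The members and lists were chosen with earlier results of these data known.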

Additional observations from a re-analysis of the deposited data

Results flagged for a closer look

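Among the 4 LPS arrays, the within-array log2 value of miR-221-3p minus miR-126a-3p on replicate 6, at -3.37, lay far from the other 3 arrays relative to their range (Dixon's criterion at the 95% level). Of 20 groups of values examined in this way, chance flags about 1. Without LPS replicate 6 the change of this pair was -0.34.

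The longest probe to miR-222-5p, an arm that enters no comparison between groups because it was not above background, had a mean signal of 11.2 scanner units on LPS arrays, above every sham array.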

How the results depend on the processing

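MiR-221-3p was called lower in all 23 alternatives, at -0.47 to -0.25 with limma adjusted p-values of 5.71e-04 to 0.0253. MiR-222-3p kept an adjusted p above the threshold (0.0687 to 0.759) and a positive sign except under quantile normalization (-0.11) and spike-in scaling (-0.059). MiR-126a-3p was called in none (limma adjusted p 0.0787 to 0.948) and was above 0 with the percentile over all probes (0.040), without scaling (0.060) and in the deposited ratio table (0.018). MiR-126a-5p was above 0 in the same 3 (0.035, 0.055 and 0.013) and was called lower under quantile normalization (-0.22, limma adjusted p = 0.0214). Spike-in scaling gave -0.159 for miR-126a-3p and -0.165 for miR-126a-5p. Leaving out single arrays gave -0.34 to -0.29 for miR-221-3p, 0.06 to 0.14 for miR-222-3p, -0.043 to 0.016 for miR-126a-3p and -0.055 to 0.033 for miR-126a-5p.

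Under quantile normalization, which does not act on an array by 1 factor, the changes within arrays were 0.28 for miR-222-3p minus miR-221-3p, -0.37 for miR-221-3p minus miR-126a-3p, -0.17 for miR-221-3p minus miR-126a-5p, -0.20 for miR-126a-5p minus miR-126a-3p and -0.090 for miR-222-3p minus miR-126a-3p. Cyclic loess gave -0.051 for miR-126a-5p minus miR-126a-3p, and normexp gave 0.33 for miR-222-3p minus miR-221-3p.

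The count of called miRNAs, 136, was 60 with no filter on dim miRNAs, which tests more of them, 80 with slide column as a block, and 94 to 148 with single arrays left out. The 50 higher and 86 lower calls became 55 and 53 with the percentile over all probes, 57 and 49 without scaling, 34 and 150 with spike-ins, and 46 and 53 in the ratio table. The cause of these shifts was not tested. No paired analysis was possible because the labels pair no samples and the groups share only replicate number 6, and the block of slide columns pairs arrays by position alone. The number of arrays and, for the 5p arms of miR-221 and miR-222, signal over background limit what can be read.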
